A study of Mus musculus with 15 samples.

Results

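The Sp7 gene locus was examined as a window of 300 kb of mouse chromosome 15, from 102.05 to 102.35 Mb in the mm9 build, which takes in the Sp7 gene and its flanks. Every ChIP-seq peak whose midpoint lay in this window was taken from each of 12 peak lists, 180 peaks of 165108 in all. Peaks that shared at least 1 bp were merged into sites, which gave 51 sites of 61108 across the genome. Sites are numbered 1 to 51 by position, and all coordinates are mm9, counted from 1. Of the 51 sites, 28 held a peak of both replicates of at least 1 tagged factor (52% of all sites did), and the other 23 did not.

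The lists came from chromatin pulled down with the M2 antibody against the FLAG tag. Primary osteoblasts were taken from the calvaria of C57BL/6 mice at postnatal day 1, with the genotype Sp7-BioFL/BioFL for tagged Sp7 (2 libraries) and wild-type for the antibody control (1 library). MC3T3-E1, a mouse calvarial osteoblastic cell line at passages 5 to 10, had 1 week of culture in a medium that favours bone formation, which held recombinant BMP2 (10 ng/ml) with beta-glycerophosphate (10 mM) and the phosphate of ascorbic acid (50 ug/ml). Its libraries carried tagged Sp7, Dlx5, Sp1 or a mutant labelled Sp7mut (2 libraries each), or GFP as the antibody control (1 library). The labels do not say which residues Sp7mut changes, how the factors were brought into the line, whether cells came from 1 clone, or whether pups were pooled. Per the labels, peaks of Sp7 and Dlx5 in the line were called against 1 input library and those of Sp1 and Sp7mut against another. The cell types could not be checked against marker genes, because peak lists hold no expression values.

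Sp7, also called Osterix, is a zinc finger transcription factor of the Sp family that acts after Runx2 and is required for osteoblasts to form. Dlx5 is a homeodomain factor induced by BMP signalling and a known activator of Sp7 expression. Sp1 is the widely expressed founding member of the Sp family and binds GC-rich promoters. Autoregulation means that a factor acts on its own gene. ChIP-seq peaks at the gene of a factor show where it was recovered there. Transcription of Sp7 was not measured in these lists. In the order of protein-coding genes in the RefSeq table of GRCm38.p6, Sp7 lies between Aaas and Sp1. The 4 genes beyond Aaas are Myg1, Pfdn5, Espl1 and Mfsd5, and those beyond Sp1 are Amhr2, Prr13, Pcbp2 and Map3k12. The position of each gene within the mm9 window was not used here, so sites are given by coordinates and not by gene, exon or intron.

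The lists give positions only, with no score or read count, so depth is unknown. In their place the row percentile is given, which is the row number of a peak as a percentage of the rows of its list, so that low values stand early. The rule behind the row order is not stated, and percentiles of lists of different length are not levels of binding. Tagged lists ranged from 2666 to 39749 rows, and the control lists had 183 and 269. A site without a peak in a list is a site that was not called there, since the calling threshold is not given in the sources used here.

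Peaks of all 8 cell line lists of a factor were dense in the window. Sp7 gave 21 peaks in replicate 1 and 7 in replicate 2, Sp7mut gave 19 and 25, Dlx5 gave 20 and 30, and Sp1 gave 20 and 32. To give these counts a background, chromosomes 1 to 19 and X were cut into 8567 tiles of 300 kb in register with the window, which is itself 1 of them. The tile median was 0 to 2 peaks in these lists. At least as many peaks as in the Sp7 window stood in 0.198% and 1% of tiles for Sp7, in 0.035% and 0.0467% for Sp7mut, in 1.2% and 0.444% for Dlx5, and in 0.0817% and 0.245% for Sp1. For Sp7mut this was 3 and 4 tiles, the window included. The primary Sp7 lists had 1 and 3 peaks, counts that 21.5% and 3.15% of tiles reached. Each control list had 1 peak, a count that 1.88% of tiles reached for the wild-type control and 2.81% for the GFP control. The window was thus among the fullest 1.2% of tiles in each cell line list of a factor, but not in the primary Sp7 or control lists.

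**Figure D1:**
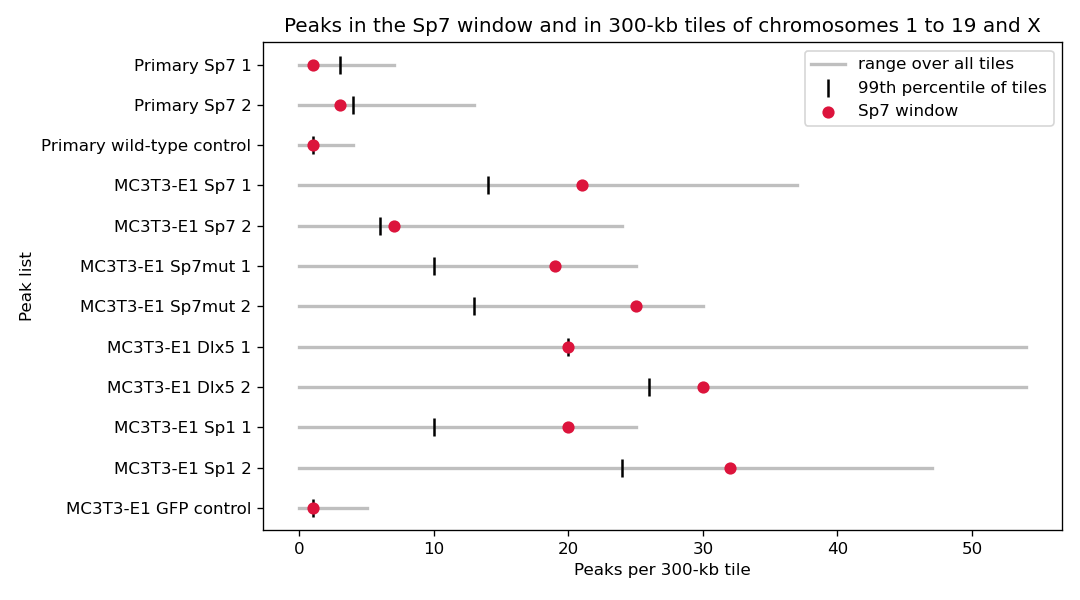
Peaks per 300-kb tile on the horizontal axis for each of the 12 lists. Grey lines span 0 to the fullest tile, black ticks mark the 99th percentile of tiles, and red points mark the Sp7 window. The 8 red points of cell line factors lie at or beyond the tick, at 7 to 32 peaks, and those of the primary and control lists lie at 1 or 3.

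Sites found in both replicates were counted per factor, beside the share of all 61108 sites of the genome that met the same rule. Cell line Sp7 had 7 such sites, 13.7% of the 51, against 8.54% of all sites. Sp7mut had 15 sites (29.4%, against 13.9% of all sites) and Sp1 had 15 (29.4%, against 15.1%). Dlx5 had 14 sites (27.5%, against 39.2%). Sp7, Sp7mut and Sp1 thus took a larger share of the sites in the window than of all sites, and Dlx5 a smaller one. Primary Sp7 had 1 site (1.96%, against 3.58%), which lay over a peak of both FLAG controls. Asking for 1 replicate in place of both raised the counts to 20 for Sp7 without replicate 2 and, without replicate 1, to 24 for Sp7mut, 30 for Sp1 and 27 for Dlx5. Genome-wide shares for 1 chosen replicate were not computed. With a peak in either replicate, Sp7 held 39.2% of the window sites against 30.2% of all sites, and Sp7mut 54.9% against 25.8%. By the same rule Sp1 held 64.7% against 46.1%, and Dlx5 64.7% against 72.5%. These shares of 1 locus were described beside those of the genome and were not tested.

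**Figure D2:**
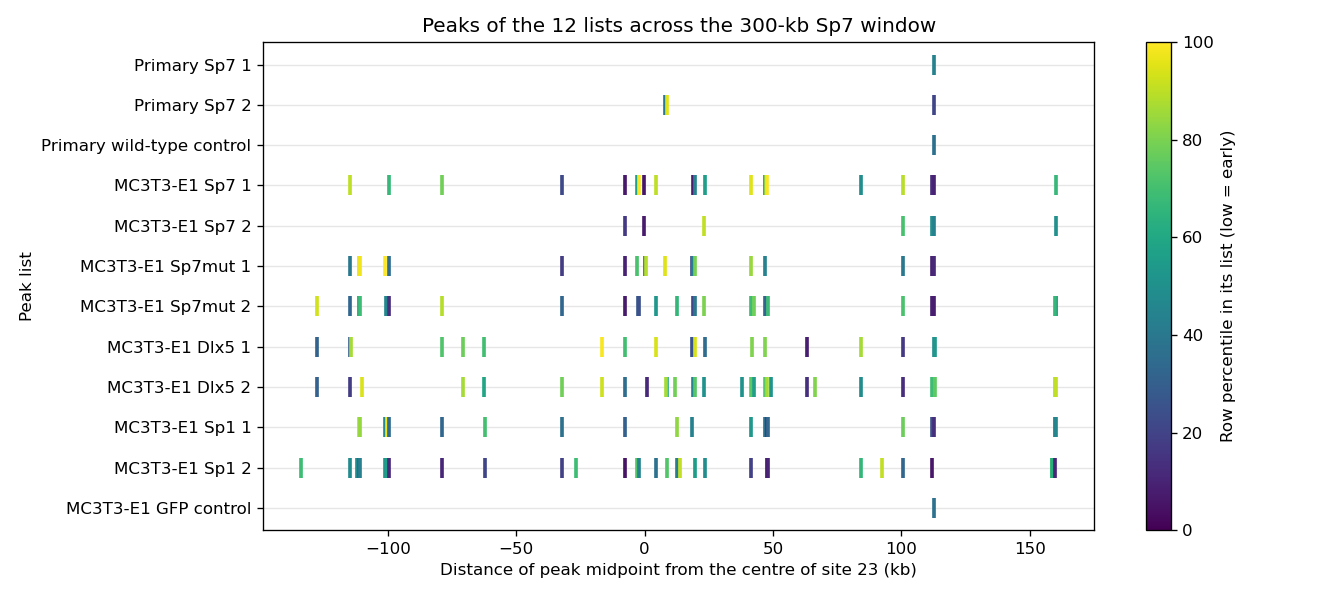
Peaks of the 12 lists (rows) by the distance of their midpoint from the centre of site 23 in kb. Each tick is 1 peak, coloured by its row percentile from 0 (early, dark) to 100 (late, yellow). The darkest ticks of Sp7 lie at and near 0 kb, and the control lists hold 1 tick each, both at site 47, 112.5 kb from site 23.

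Cell line Sp7 had its 2 earliest two-replicate sites, 19 and 23, near the middle of the window, with centres 7.6 kb apart. Site 23, chr15:102188696-102189008, held the earliest peak of the window in each Sp7 list. It stood at row 1036 of 18624 (5.56%) in replicate 1 and at row 429 of 6063 (7.08%) in replicate 2. The other list with a peak there was Sp7mut replicate 1, at row 3287 of 10519 (31.2%). No list of Dlx5, Sp1, primary Sp7 or a control met the site, so all its peaks came from cell line libraries that carry a tagged form of Sp7. Whether the site lies in coding sequence of Sp7, which DNA brought in to express tagged Sp7 would share with the gene, was not tested, and a peak from such DNA cannot be told apart here from binding at the gene. Across the genome, 38 of 5119 two-replicate Sp7 sites outside control peaks (0.742%) had no peak of Dlx5 or Sp1 in any list. The peaks of site 23 differed in width, at 221 bp in Sp7 replicate 1, 50 bp in replicate 2 and 215 bp in Sp7mut. Midpoints of the Sp7 pair lay 38.5 bp apart, where the median over all 5217 two-replicate Sp7 sites was 26.5 bp. When a shared site was asked to hold peaks that overlapped by 50% of both, site 23 no longer counted as a two-replicate Sp7 site. A gap of 276 bp separated it from site 24, chr15:102189285-102189754, which held a peak of Dlx5 replicate 2 at row 4508 of 39749 (11.3%) and one of Sp7mut replicate 1 at 88.8%.

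Site 19, chr15:102181117-102181462, was met by all 8 cell line lists of a factor and by none of the primary or control lists. Such sites made up 2.1% of all sites. Sp7 stood at 6.47% and 16.7% of its lists (rows 1205 and 1012), and Sp7mut at 9% and 6.73%. Sp1 stood at 30.3% and 4.79%. Dlx5 stood later, at 69.8% and 35.4%. The Sp7, Sp7mut and Sp1 peaks of this site were therefore in the first 20% of rows in 5 of their 6 lists, and the Dlx5 peaks were not. Midpoints of the Sp7 peaks lay 5.5 bp apart. From Sp7 to Sp7mut midpoints the distance was 10.5 to 30 bp and from Sp7 to Sp1 8.5 to 29.5 bp over 4 pairs of lists each. From Sp7 to Dlx5 it was 73 to 121.5 bp, and the Dlx5 peaks were 205 and 331 bp wide against 102 and 129 bp for Sp7. Over all sites of the genome, the median distances of these pairs of lists were 24 to 31.5 bp from Sp7 to Sp7mut. They were 39 to 59.5 bp to Sp1 and 29.5 to 34.5 bp to Dlx5.

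The other site met by all 8 lists was site 45, chr15:102289409-102289706. Dlx5 stood early there, at 16.6% and 12.6% of its lists (rows 5019 and 4993), and Sp7 late, at 89.4% and 71% (rows 16652 and 4307). Sp7mut stood at 40.1% and 71.2%, and Sp1 at 77.4% and 33.1%. The distance from Sp7 to Dlx5 midpoints was 10.5 to 51 bp here, and that between the Sp7 pair 40.5 bp. The genome-wide medians were 29.5 to 34.5 bp from Sp7 to Dlx5 and 26.5 bp between the Sp7 pair. Sites 19 and 45 held the same lists, so presence alone did not tell them apart. Within the lists they differed, as both Sp7 lists placed site 19 before site 45 and both Dlx5 lists placed site 45 before site 19.

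Site 46, chr15:102300646-102300971, held Sp7, Sp7mut and Sp1 in both replicates and Dlx5 in replicate 2 alone. Sp7 stood at 12.9% and 50.2%, Sp7mut at 9.48% and 8.72%, Sp1 at 24.9% and 6.04%, and Dlx5 at 68.8%. This site lay 242 bp from site 47, chr15:102301214-102301503, which was the one site of the window with control peaks. At site 47 the wild-type control stood at row 67 of 183 (36.6%) and the GFP control at row 100 of 269 (37.2%). The site was met by 10 of the 12 lists, a breadth reached by 0.268% of all sites, and 0.563% of all sites held a control peak. Primary Sp7 stood there at 43.7% and 20.5%, cell line Sp7 at 9.67% and 43.6%, and Sp7mut at 11.2% and 7.44%. Dlx5 replicate 2 and Sp1 replicate 2 had no peak there. Because FLAG pulldown without a tagged factor also gave this site, it was left out of the shares between factors below.

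The remaining Sp7 sites, 34 and 51, stood later than sites 19 and 23 in both Sp7 lists. Site 34, chr15:102212085-102212306, had Sp7 at 55.7% and 90.3%, Dlx5 at 35% and 50.4%, Sp1 replicate 2 at 48.9% and Sp7mut replicate 2 at 80.2%. Its Sp7 peak of replicate 2 was 17 bp wide, and the site did not count for Sp7 when an overlap of 50% of both peaks was asked for. Site 51, chr15:102348407-102349271, had Sp7 at 67% and 50.2%, Sp1 at 34.7% and 10.5%, Sp7mut replicate 2 at 40.8% and Dlx5 replicate 2 at 86.7%. It spanned 865 bp as a chain of 9 peaks, and Sp7 and Sp1 midpoints within it lay 37 to 538.5 bp apart, so its peaks need not mark 1 binding position. Neither site had a primary Sp7 or control peak.

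**Figure D3:**
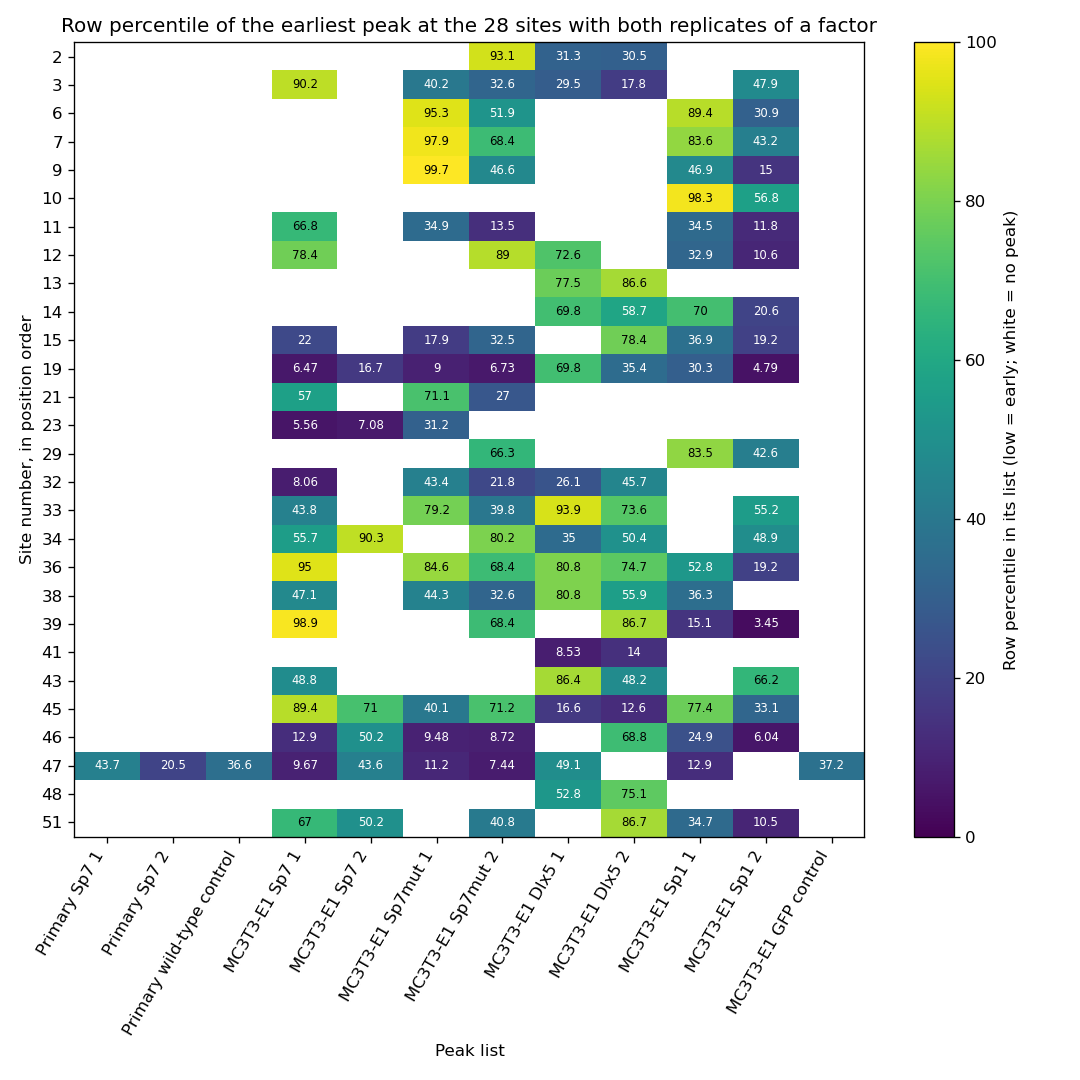
Row percentile of the earliest peak of each list (columns) at the 28 sites with both replicates of a factor (rows, by position). White cells mark no peak. Sites 19 and 45 are filled in all 8 cell line lists of a factor, site 23 in 3 lists, and site 47 in 10 lists, controls included.

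Partners of cell line Sp7 in the window differed in number from those at Sp7 sites of the whole genome. Of the 6 two-replicate Sp7 sites outside the control peak, 3 had Dlx5 in both replicates (sites 19, 34 and 45), against 87.2% of 5119 such sites in the genome. Counting a Dlx5 peak in either replicate, the numbers were 5 of 6 and 96.1%. Sp1 in both replicates was found at 4 of the 6 (sites 19, 45, 46 and 51), against 32.7%, and in either replicate at 5 of 6, against 73%. Sp7mut in both replicates was found at 3 of 6, against 71.4%, and in either at 6 of 6, against 88%. Sp7 sites of the window thus had Dlx5 less often and Sp1 more often by the two-replicate count, and with either replicate the shares lay nearer to those of the genome. Site 23, where a peak from introduced DNA cannot be told apart from binding, is among the 6. It had no Dlx5 or Sp1 peak in any list. Site 46, which lies 242 bp from the control site 47, is also among the 6. These are counts over 6 sites of 1 locus, and none was tested. They rest on Sp7 replicate 2, the shorter list. With a 50% overlap of both peaks, Sp7 shared 2 sites with Dlx5 and 2 with Sp1. Sp7 and Dlx5 share an input library and Sp1 and Sp7mut have another, so input and factor cannot be told apart in these counts. Without replicate 2 of every group, 12 Sp7 sites held Dlx5 and 11 held Sp1, of 20 in all with the control site. Without replicate 1 each partner was held by 5 of 7, also with the control site. Genome-wide shares were not computed with a replicate left out, so the counts of these 2 settings have no background.

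**Figure D4:**
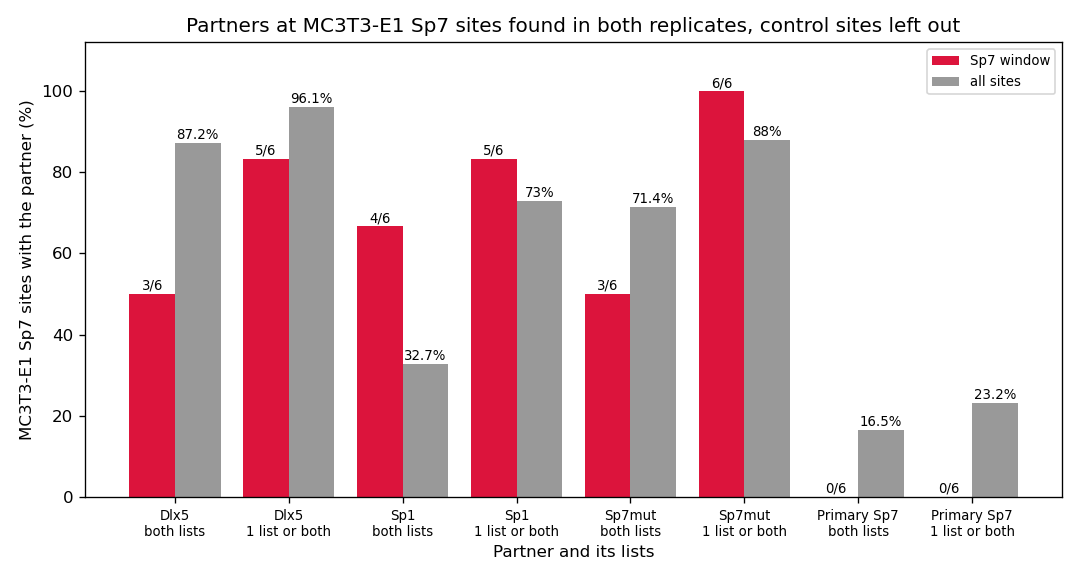
Percentage of cell line Sp7 sites in both replicates, outside control peaks, that also held each partner. Red bars are the 6 sites of the Sp7 window (labelled with counts) and grey bars the 5119 sites of the genome. Dlx5 in both lists stands at 3 of 6 against 87.2% and Sp1 at 4 of 6 against 32.7%.

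Sp7 in primary osteoblasts had no site in both replicates outside the control peak. Replicate 1 had 1 peak in the window, the one at site 47. Replicate 2 had 2 more, at site 26, chr15:102196779-102196933, at row 1315 of 3212 (40.9%), and at site 27, chr15:102197200-102197693, at row 3075 (95.7%). Their centres lay 8.0 and 8.6 kb from that of site 23, and neither held a cell line Sp7 peak. Site 26 also held Sp7mut replicate 1 at 95.3%, and site 27 held Dlx5 replicate 2 at 58.7% and Sp1 replicate 2 at 72.9%. Of the 6 cell line Sp7 sites, 0 had a primary Sp7 peak in either replicate, and 23.2% of Sp7 sites in the genome had one (16.5% in both replicates). Beyond the window, the nearest primary peaks lay at chr15:102421159-102421387 in replicate 1 and chr15:102421123-102421316 in replicate 2, 71.3 and 71.2 kb past its right edge. On the left side they lay 212.3 kb past the edge in both replicates.

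Sp7mut had 14 sites in both replicates outside the control peak, against 6 for Sp7. Across the genome there were 8309 such sites for Sp7mut and 5119 for Sp7. Sp7 was found in both replicates at 3 of the 14 Sp7mut sites, against 44% of the 8309 in the genome. In either replicate Sp7 was found at 11 of the 14, against 82.2%. Sp7 and Sp7mut have different input libraries, so input and factor cannot be told apart in these counts. The Sp7 lists differ in length, with 18624 rows in replicate 1 and 6063 in replicate 2, and the part of that in these counts was not tested. At site 32, chr15:102207695-102207901, Sp7 replicate 1 stood at row 1501 (8.06%) and Sp7mut at 43.4% and 21.8%, with Dlx5 at 26.1% and 45.7%. Site 15, chr15:102156425-102156664, had Sp7mut at 17.9% and 32.5%, Sp1 at 36.9% and 19.2%, and Sp7 replicate 1 at 22%. Site 21, chr15:102185932-102186228, had both Sp7mut replicates, at 71.1% and 27%, and Sp7 replicate 1 at 57%, with no Dlx5 or Sp1 peak. These 3 sites lacked a peak of Sp7 replicate 2. Sites 6, 7 and 9 were the Sp7mut sites with no Sp7 peak in either replicate. Sp7mut stood there at 95.3% and 51.9%, at 97.9% and 68.4%, and at 99.7% and 46.6%. Sp1 was found in both replicates at 9 of the 14 Sp7mut sites (42.3% in the genome) and Dlx5 at 7 (71.2%). Sp1 and Sp7mut share an input library, so input and factor cannot be told apart in this count.

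Sp1 had 5 of its 15 two-replicate sites in the first 50 kb of the window, more than in any other of its 6 parts of that length. Sp7mut had 5 sites there, Dlx5 had 2 and Sp7 had 0. Within this stretch, site 11, chr15:102089432-102089597, had Sp1 at 34.5% and 11.8%, Sp7mut at 34.9% and 13.5%, and Sp7 replicate 1 at 66.8%. The earliest Sp1 peaks of the window stood elsewhere. They were at site 39, chr15:102236443-102237178, at 15.1% and 3.45%, and at site 47 for replicate 1, at 12.9%. Site 39 also held late peaks of Sp7 replicate 1 (98.9%), Sp7mut replicate 2 (68.4%) and Dlx5 replicate 2 (86.7%). Of the 15 Sp1 sites, 4 held Sp7 in both replicates (18.6% in the genome), 4 held Dlx5 (33.9%) and 9 held Sp7mut (38.9%). No Sp7 peak of either replicate was found at 6 of the 15, against 47.6% in the genome. At site 12, chr15:102109787-102110150, Sp1 stood at 32.9% and 10.6% and the single Sp7, Dlx5 and Sp7mut peaks at 72.6% to 89%.

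The earliest peak of Dlx5 replicate 1 stood away from every other factor. At site 41, chr15:102251963-102252164, Dlx5 stood at row 2580 of 30234 (8.53%) and row 5575 of 39749 (14%), and no other list had a peak. In Dlx5 replicate 2 the peaks of sites 24 (row 4508) and 45 (row 4993) stood before that of site 41. Both of those sites also held Sp7mut, and site 45 held Sp7 and Sp1 as well. Of the 14 two-replicate Dlx5 sites, 3 held Sp7 in both replicates (18.7% in the genome), 7 held Sp7mut (24.9%) and 4 held Sp1 (12.9%). In all, 5 of the 14 sites held no second factor in both replicates (sites 2, 13, 41, 43 and 48). At 2 others the partner was Sp7 (site 34) or Sp1 (site 14). The genome-wide share of Dlx5 sites without a second factor was not computed, so this count has no background. Site 3, chr15:102073942-102074176, had Dlx5 at 29.5% and 17.8% with Sp7mut at 40.2% and 32.6%. Over all Dlx5 peaks of the window, the median percentile was 69.8% in replicate 1 and 63.7% in replicate 2, with 12 of 20 and 22 of 30 peaks in the later 50% of rows. For Sp7 the medians were 57% and 50.2%, with 12 of 21 and 4 of 7 peaks in the later 50%. For Sp7mut they were 43.4% and 46.6%, with 8 of 19 and 12 of 25 peaks. For Sp1 they were 40.2% and 43.9%, with 7 of 20 and 12 of 32 peaks. By construction the median over a whole list is 50%, and these differences from it were not tested.

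The 23 sites without both replicates of a factor comprised 16 met by 1 list and 7 met by 2 to 4 lists. Across the genome 39.5% of sites were met by 1 list, against 31.4% here. Of the 16, 8 were peaks of Sp1 replicate 2, 6 of Dlx5 replicate 2 and 2 of Dlx5 replicate 1. These are the 3 longest lists, and the part of length in these counts was not tested. Genome-wide shares of such sites were not computed for each list, so the counts per list have no background. Among the other 7, site 25, chr15:102193255-102193402, held 1 list of each factor, with Sp7 at 90.2%, Dlx5 at 93.9%, Sp1 at 37.3% and Sp7mut at 52.8%. Site 31, chr15:102207279-102207520, held replicate 1 of Dlx5 (25.7%), Sp1 (43.5%) and Sp7mut (24.2%). Site 22, chr15:102186342-102186642, held Sp7 at the end of its list (99.9%), Sp7mut replicate 2 at 24.5% and a peak of Sp1 replicate 2 of 10 bp.

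The lists differ in length, so they were also read to the same depth of rows. With the first 2666 rows of each list, the length of the shortest list of a factor, 11 sites remained. Sp7 kept 3 two-replicate sites in the cell line, namely 19, 23 and the control site 47. Sp7mut kept 3, Sp1 kept 2 and Dlx5 kept 0. Because Dlx5 kept 0 sites at this length, none could be shared with Sp7. Of the 2 Sp1 sites, 0 held Sp7 in both replicates. Genome-wide shares at this length were not computed, so these counts do not show that the factors lie apart. At site 19 the lists left were those of Sp7 and Sp7mut in both replicates and Sp1 in replicate 2.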

How the data were processed

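FLAG ChIP-seq peak lists of 12 libraries were analysed; the 3 input libraries were not analysed here. The deposited lists have 3 columns, chromosome, start and end, and no other values. The submitters' processing notes name mm9 as the build, and for the aligner, caller and threshold the sources used here name nothing. The authors called peaks in each library against an input, per the labels, which name none for GFP. Nothing in the labels tells separate cultures or animals, so differences between replicates could be technical only.

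Groups came from sample titles. Peaks with midpoint in the window were merged at 1 bp of overlap, and a factor held a site with a peak of both replicates. Shares of window sites were set beside the same share over all merged sites. Shares between factors were set beside those over merged sites without a control peak. Some counts, such as those with a replicate left out, have no such background. The window and rules were chosen with earlier results of these data known. Sites named were those with both replicates of a factor or a control peak; others were chosen after their values were seen. Alternatives were 50% reciprocal overlap, joining within 100 bp, the first 2666 rows, the earlier or wider 50% of peaks, the central 100 kb, control sites left out, tiles moved by 150 kb and each replicate left out. No test was run. Merging was tested on simulated data, where 2000 of 2000 planted sites were recovered. Python 3.11.15 and matplotlib 3.10.9 were used.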

Additional observations from a re-analysis of the deposited data

How the results depend on the processing

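The counts of sites depended on the length of the lists and the overlap asked for. The window held 51 sites, 88 with a 50% overlap of both peaks, 11 with the first 2666 rows, 33 with the earlier 50% of rows, 33 with the wider 50% of peaks, and 26 in the central 100 kb. With the first 2666 rows, two-replicate sites numbered 3 (cell line Sp7), 0 (Dlx5), 2 (Sp1) and 3 (Sp7mut). In the same order they numbered, with the earlier 50% of rows, 3, 5, 9 and 8, with the wider 50% of peaks 2, 6, 8 and 7, and in the central 100 kb 3, 6, 5 and 7. The 1 primary Sp7 site, which is also the 1 site of primary and cell line Sp7 together, became 0 with the wider 50% of peaks, in the central 100 kb and with control sites left out. Sites shared by Sp7 and Dlx5, 3 in all, became 0 with the first 2666 rows, with the earlier 50% of rows and with the wider 50% of peaks. Those shared by Sp7 and Sp1, 4 in all, became 2 with the 50% overlap, 0 with the first 2666 rows, 1 with the earlier 50% of rows, 0 with the wider 50% of peaks and 1 in the central 100 kb. Shorter lists and windows hold fewer peaks, while the 50% overlap was asked of all peaks. The causes of these changes were not tested.

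Leaving out a replicate asks for 1 peak in place of 2. Two-replicate sites then ranged from 1 to 3 for primary Sp7, 7 to 20 for cell line Sp7, 20 to 27 for Dlx5, 18 to 30 for Sp1 and 19 to 24 for Sp7mut. The higher value came without replicate 2 for cell line Sp7 and without replicate 1 for the others. Sites shared by Sp7 and Dlx5 ranged from 5 to 12, and those shared by Sp7 and Sp1 from 5 to 11, so that the order of Dlx5 and Sp1 as partners seen with both replicates (3 and 4) was not kept in either case, at 12 and 11 without replicate 2 and 5 each without replicate 1. Sites of primary and cell line Sp7 together stayed at 1. Moving the tiles moved no share by over 1.5 times.

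Where a list had 2 peaks in a named site, the later one stood at 52.9% in place of 15% for Sp1 replicate 2 at site 9. At site 38 it stood at 86% in place of 47.1% for Sp7 replicate 1 and at 73.5% in place of 55.9% for Dlx5 replicate 2. At site 39 Sp1 moved from 15.1% to 33.3% and from 3.45% to 10.2%. At site 51 Dlx5 replicate 2 moved from 86.7% to 90.7%, Sp1 replicate 1 from 34.7% to 46.8% and Sp7mut replicate 2 from 40.8% to 66.5%. No paired analysis was possible because no result comes from a test.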

Other observations

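Some neighbouring peaks of the locus stood in neighbouring rows, more so in some lists than in others. In Dlx5 replicate 1, 8 of the 20 peaks of the window had another of its peaks within 10 rows, in Dlx5 replicate 2 8 of 30, in Sp1 replicate 2 8 of 32 and in Sp7mut replicate 2 5 of 25. The counts were 4 of 20 in Sp1 replicate 1, 2 of 19 in Sp7mut replicate 1, 2 of 21 in Sp7 replicate 1 and 2 of 7 in Sp7 replicate 2. In Sp7 replicate 2, the peaks of sites 46 and 51 stood at rows 3043 and 3046 of 6063. Over whole cell line lists of a factor, 7.56% to 16.9% of peaks had a peak within 300 kb among the 10 rows on either side. That share was 1.71% to 4.4% in the first 20% of rows and 7.97% to 25.4% in the last 20%. Row percentiles of neighbouring sites are therefore not always independent readings.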
